A study of Mus musculus with 15 samples.

Results

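Toll-like receptors (TLRs) are the membrane sensors through which dendritic cells detect microbes, and 10 of their genes were followed here among the 50554 genes counted in each library. They were taken as a fixed list by name, not by how they moved. Tlr1, Tlr2, Tlr4, Tlr5 and Tlr6 encode 5 receptors of the cell surface, and Tlr3, Tlr7, Tlr8, Tlr9 and Tlr13 encode 5 receptors of endosomes. Tlr11 and Tlr12 are not on this list, so the comparison of surface with endosomal genes leaves them out. All 10 were counted in all 15 libraries, and all 10 passed the filter on low counts. Mouse marrow was grown for 9 days in 20 ng/mL of the growth factor GM-CSF, which gives bone marrow-derived dendritic cells (BMDCs), professional antigen-presenting cells. The cells were then held for 18 h either with 10 ng/mL LPS, a component of the outer membrane of Gram-negative bacteria, or without it (US). In the Δ/DN group, tamoxifen given to CreERT2 Mysm1 fl/DN mice removed the floxed Mysm1 allele and left an allele for catalytically inactive MYSM1, a deubiquitinase of histone H2A. In the Δ/+ controls, CreERT2 Mysm1 fl/+ mice treated in the same way kept a wild-type allele. Both genotypes therefore carried CreERT2, had received tamoxifen and had 1 deleted Mysm1 allele, and cultures were started over 12 weeks after that treatment. There were 4 Δ/DN LPS, 4 Δ/DN US, 3 Δ/+ LPS and 4 Δ/+ US libraries, from 8 cultures of which 7 gave both treatments. The promoter that drives CreERT2 and whether each culture came from a separate mouse are not stated in the labels, so the p-values measure only the spread between these cultures, which may be technical.

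TLRs bind microbial products through a horseshoe of leucine-rich repeats and signal through a cytoplasmic TIR domain. The surface receptors sense molecules of the bacterial envelope and flagella: TLR4 binds LPS together with MD-2, TLR2 pairs with TLR1 or TLR6 to bind lipopeptides, and TLR5 binds flagellin. The endosomal receptors sense nucleic acids: TLR3 binds duplex RNA, TLR7 and TLR8 single-stranded RNA and its breakdown products, TLR9 unmethylated CpG DNA, and TLR13, a receptor that mice have and humans lack, bacterial ribosomal RNA. All signal through the adaptor MYD88 except TLR3, which uses TICAM1 (TRIF), and TLR4 uses both. The chaperone UNC93B1 carries the endosomal receptors out of the endoplasmic reticulum.

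Libraries held 37256651 to 104041282 reads assigned to genes. Samples carry a genotype label that the series description contradicts through its lettered mouse groups, so directions between genotypes follow the sample labels and are the opposite if the description is the correct one. Library names fall into sets 2 and 3, whose meaning was not given, and set 3 held only Δ/DN cultures 3 and 4 and Δ/+ US replicate 4. Total Mysm1 RNA lay at 30.8 to 39.97 and 28.1 to 48.9 CPM (read counts scaled to a common library size, with TMM normalisation factors) in Δ/DN LPS and Δ/DN US libraries, and at 41.3 to 44.6 and 46.3 to 54.1 CPM in Δ/+ LPS and Δ/+ US libraries. Each genotype keeps 1 undeleted allele, so this level does not check the labels. Xist, the RNA of the inactive X chromosome, reached 1166 and 1144 CPM in the LPS and US libraries of Δ/DN culture 4 and was at most 0.0645 CPM in the other libraries. Of the dendritic cell markers, Itgax was at least 842 CPM and H2-Ab1 at least 522 CPM in every library, while Flt3 averaged 1.19 to 1.52 CPM and Cd209a 0.241 to 1.00 CPM over the 4 groups. In bulk RNA, fewer cells of a type and less RNA per cell cannot be told apart.

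The windows from 250 bases before to 50 bases after the transcription start are printed for 4 members: Tlr2 and Tlr3, the members with the highest level and with the largest LPS response, Tlr6, whose paired receptor is TLR2, and Tlr9, which was higher in Δ/DN cells in both states. They come from RefSeq on the build GRCm38.p6, which holds such a window for 8 of the 10 genes, all but Tlr4 and Tlr7. Capitals mark matches to the NF-kB consensus (searched by that name) or to the interferon response motif, a pair of GAAA runs with any 2 bases between, on either strand. The coordinates are chr3:83841559-83841858 (minus strand) for Tlr2, chr8:45410331-45410630 (minus strand) for Tlr3, chr5:64959117-64959416 (minus strand) for the first of 2 Tlr6 starts, and chr9:106222348-106222647 (plus strand) for Tlr9.
Tlr2: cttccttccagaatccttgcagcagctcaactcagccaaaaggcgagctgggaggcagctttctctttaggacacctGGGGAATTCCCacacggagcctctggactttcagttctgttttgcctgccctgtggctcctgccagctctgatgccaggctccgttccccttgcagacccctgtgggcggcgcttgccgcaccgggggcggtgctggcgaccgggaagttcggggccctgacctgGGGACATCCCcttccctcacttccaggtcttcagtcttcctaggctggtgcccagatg
Tlr3: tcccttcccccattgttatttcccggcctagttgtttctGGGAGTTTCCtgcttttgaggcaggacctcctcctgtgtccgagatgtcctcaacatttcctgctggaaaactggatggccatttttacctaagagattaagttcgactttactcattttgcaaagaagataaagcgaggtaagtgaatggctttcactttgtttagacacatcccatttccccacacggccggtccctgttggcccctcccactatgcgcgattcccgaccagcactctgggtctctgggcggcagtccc
Tlr6: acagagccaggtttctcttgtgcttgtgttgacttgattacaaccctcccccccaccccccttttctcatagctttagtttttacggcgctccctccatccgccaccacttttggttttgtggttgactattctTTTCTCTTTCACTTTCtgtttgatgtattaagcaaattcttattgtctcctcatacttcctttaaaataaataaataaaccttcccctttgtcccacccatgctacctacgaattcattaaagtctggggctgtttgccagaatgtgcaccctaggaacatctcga
Tlr9: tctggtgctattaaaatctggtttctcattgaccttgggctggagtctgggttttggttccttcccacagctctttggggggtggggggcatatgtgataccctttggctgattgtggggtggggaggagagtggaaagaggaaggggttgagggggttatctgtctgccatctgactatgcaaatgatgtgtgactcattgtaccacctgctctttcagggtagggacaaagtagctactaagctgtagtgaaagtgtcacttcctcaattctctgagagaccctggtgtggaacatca
Tlr2 held 2 separate NF-kB stretches, one of them an overlap of matches in 2 frames, starting at -173 and -8 relative to the start site. Tlr3 held 1 NF-kB match at -211. The Tlr6 window held 2 overlapping matches to the interferon response motif, read on the minus strand of the window from -116 and -110. The Tlr9 window held neither motif, but had 1 match to the AP-1 motif TGANTCA at -58. The second Tlr6 window and the windows of Tlr1, Tlr5, Tlr8 and Tlr13, which are not printed, also held neither motif. Matches to the other motifs searched are not listed. Of 32841 RefSeq promoter windows of the same 300 bases, 8.46% held an NF-kB match, 3.44% an interferon response match and 7.81% a TGANTCA match. A match is a run of letters and was not tested as a binding site.

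Tlr2 was the most abundant of the 10 RNAs in every group and Tlr5 the least. Levels of different genes were compared as CPM per kb of merged exons. On that scale Tlr2 averaged 189 ± 15.01 in Δ/DN LPS, 94.0 ± 49.1 in Δ/DN US, 297 ± 24.6 in Δ/+ LPS and 160.4 ± 8.94 in Δ/+ US libraries (mean ± SD). Without LPS, Tlr4 stood second in both genotypes, at 39.0 ± 4.90 CPM per kb in Δ/DN US and 60.0 ± 10.9 in Δ/+ US libraries. With LPS, the endosomal receptor gene Tlr7 took the second place, at 45.4 ± 6.10 CPM per kb in Δ/DN LPS and 61.6 ± 1.55 in Δ/+ LPS libraries. In each group the ranges of the genes in the top 3 places did not overlap. Further down several neighbours overlapped: in Δ/DN LPS libraries the ranges ran into each other from Tlr13 through Tlr3, Tlr4, Tlr8, Tlr9 and Tlr6 to Tlr1. In Δ/DN US libraries the order went on with Tlr13, Tlr8, Tlr7, Tlr9, Tlr6, Tlr3 and Tlr1, where Tlr13 and Tlr8, Tlr7 and Tlr9, Tlr6 and Tlr3, and Tlr3 and Tlr1 overlapped. In Δ/+ LPS libraries it went on with Tlr3, Tlr8, Tlr4, Tlr13, Tlr6, Tlr9 and Tlr1, where Tlr8, Tlr4 and Tlr13 overlapped in turn, as did Tlr6, Tlr9 and Tlr1. In Δ/+ US libraries it went on with Tlr8, Tlr13, Tlr7, Tlr9, Tlr6, Tlr3 and Tlr1, where Tlr8 and Tlr13, Tlr6 and Tlr3, and Tlr3 and Tlr1 overlapped.

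RNA for surface receptors outweighed RNA for endosomal receptors in every library per kb of merged exons, with a lowest share of 60.1%, while with the deposited gene length it was 44.3% in Δ/DN US replicate 2 and over 50% in the other 14. Tlr2 was most of the surface RNA. The 5 surface genes made up 65.0% ± 3.91 of the summed CPM per kb in Δ/DN LPS and 67.5% ± 5.86 in Δ/DN US libraries (SD, n = 4 each). The share was 70.0% ± 2.57 in Δ/+ LPS (n = 3) and 79.2% ± 2.22 in Δ/+ US libraries (n = 4). The lowest Δ/+ US share, 76.3%, lay above the highest in Δ/DN US libraries, 73.2%. Tlr2 alone supplied 34.9% to 55.9% of the summed CPM per kb of the 10 genes in Δ/DN US and 52.3% to 60.3% in Δ/+ US libraries. With Tlr2 left out, the surface share was 23.4 to 32.2% in Δ/DN LPS against 38.8 to 43.7% in Δ/DN US, and 17.5 to 21.2% in Δ/+ LPS against 46.1 to 55.3% in Δ/+ US libraries. Those ranges did not overlap between LPS and US in either genotype. Both sums were higher with LPS: the surface sum was 232 ± 12.8 against 139 ± 53.2 CPM per kb in Δ/DN, and the endosomal sum 126 ± 21.2 against 64.1 ± 12.2. In Δ/+ the surface sum was 331 ± 18.0 with LPS against 223 ± 12.6 without it, and the endosomal sum 141 ± 9.46 against 58.7 ± 6.20. These shares and sums are descriptions, with no test.

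**Figure D1:**
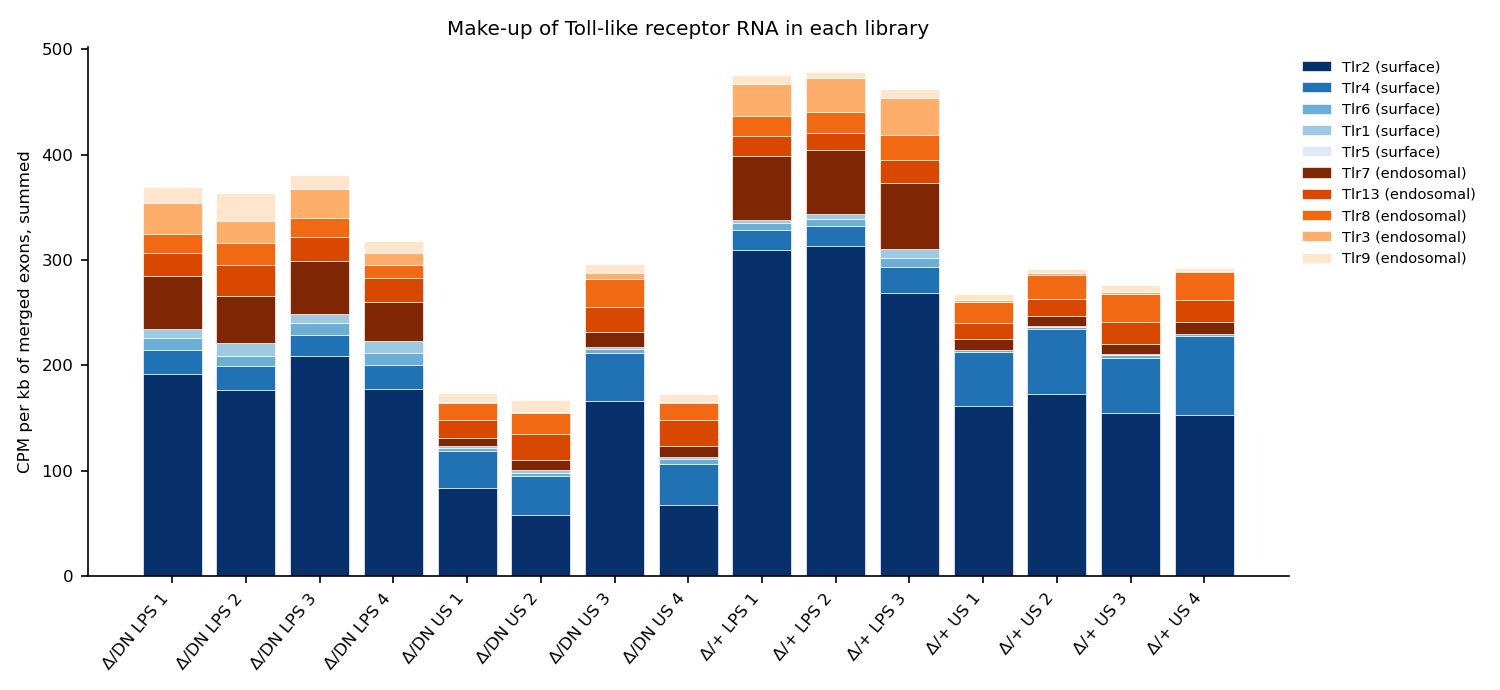
Stacked bars of CPM per kb of merged exons of the 10 genes in each of the 15 libraries, with surface genes in blue and endosomal genes in orange. Tlr2 is the largest block in every bar, and Δ/DN US replicate 3, with a total of 297, stands above the other Δ/DN US bars, which lie between 168 and 174.

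LPS raised Tlr1, Tlr2, Tlr6, Tlr3, Tlr7 and Tlr9 and lowered Tlr4 and Tlr5 in both genotypes, of which Tlr9 kept neither its call nor, in Δ/+, its direction when libraries were scaled by their totals alone. In Δ/+ the Tlr9 call was also lost in other alternative fits, given below. In the LPS minus US comparison, 8 of 10 genes passed an adjusted p under 0.05 in Δ/DN (6 higher, 2 lower) and 8 of 10 in Δ/+ (6 higher, 2 lower). Over all 20865 genes tested the share called was 48.2% in Δ/DN (23.1% higher, 25.1% lower) and 47.7% in Δ/+ (22.4% higher, 25.3% lower), so a call with LPS was common. All 5 surface genes and 3 of 5 endosomal genes were called in each genotype, and the groups did not overlap for 7 of 10 genes in each, against 40.9% of all genes in Δ/DN and 52.1% in Δ/+. Tlr5 reached the filter's cutoff of 0.127 CPM in all 8 US libraries but in 1 of 7 LPS libraries, so it could enter the test through the US side alone. Without Tlr5 the counts are 7 of 9 in each genotype, 6 higher and 1 lower. The median log2 difference of the 10 genes was 0.92 in Δ/DN and 0.74 in Δ/+, against -0.092 and -0.075 over all genes tested. The median absolute log2 difference was 1.66 over the surface and 0.81 over the endosomal genes in Δ/DN, and 1.86 and 0.53 in Δ/+, against 0.55 and 0.61 over all genes, with the largest difference in an endosomal gene, Tlr3, in each. The endosomal median in Δ/+ was thus below that of all genes. The surface medians, the 5 surface calls and the counts of groups not overlapping include Tlr5. Its absolute difference lay above the surface median in each genotype, so both surface medians would be lower without it. All adjusted p-values are from edgeR's quasi-likelihood test with Benjamini-Hochberg adjustment over all genes tested, unless another test is named, and log2 differences carry their standard error (SE). The LPS and US libraries of a culture entered that fit as independent, so its p-values and SEs do not use the pairing.

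**Figure D2:**
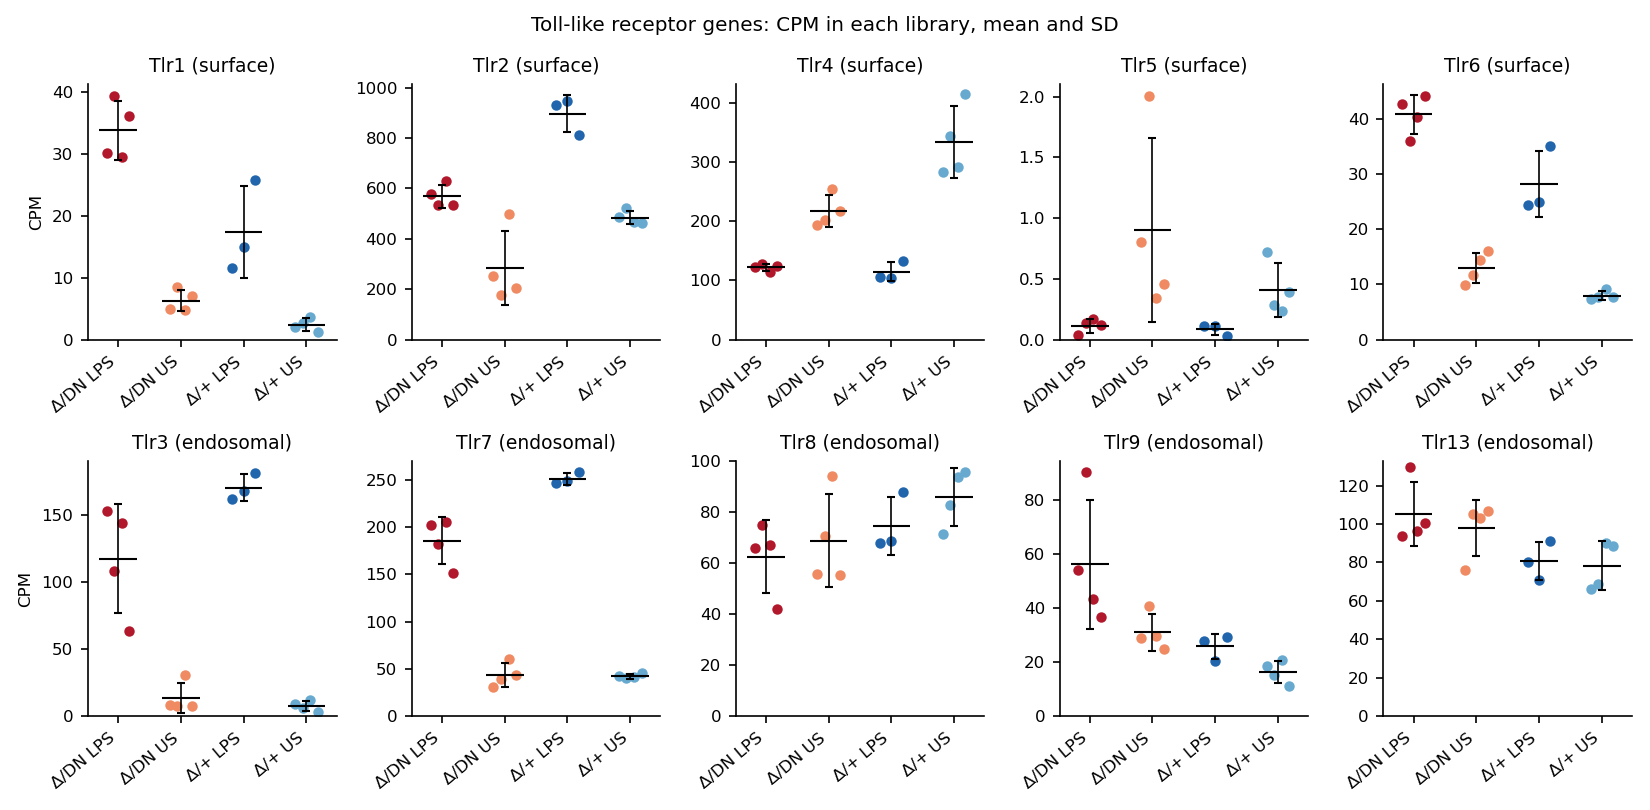
CPM of each Toll-like receptor gene in each library (points), with the group mean (line) and SD (bar), for surface genes in the upper row and endosomal genes in the lower row. Tlr1, Tlr6, Tlr3 and Tlr7 sit far higher in the LPS groups of both genotypes, Tlr4 sits lower, and Tlr8 and Tlr13 overlap between LPS and US.

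Of the surface genes, Tlr1, one of the partners of TLR2, rose most. It had 30.1, 39.3, 29.6 and 36.2 CPM in Δ/DN LPS libraries against 4.95, 8.44, 4.79 and 6.99 CPM in Δ/DN US libraries. In Δ/+ cells it had 11.5, 14.9 and 25.7 CPM with LPS against 2.07, 2.68, 3.61 and 1.16 CPM without it. Every LPS library lay above every US library of its genotype, with log2 differences of 2.43 ± 0.31 (adjusted p = 2.38e-05) in Δ/DN and 2.80 ± 0.33 (adjusted p = 1.29e-05) in Δ/+. Tlr6, the other partner, had 42.8, 36.1, 40.4 and 44.2 CPM in Δ/DN LPS and 9.93, 11.8, 14.4 and 16.003 CPM in Δ/DN US libraries. It had 24.5, 24.9 and 35.1 CPM in Δ/+ LPS and 7.31, 7.80, 9.12 and 7.70 CPM in Δ/+ US libraries. The groups did not overlap, and Tlr6 rose by 1.66 ± 0.14 (adjusted p = 3.61e-07) on the log2 scale in Δ/DN and 1.86 ± 0.15 (adjusted p = 2.30e-07) in Δ/+. Tlr2, the receptor that both partners join, had 579.6, 532, 629 and 536 CPM in Δ/DN LPS against 254, 176, 500.0 and 204 CPM in Δ/DN US libraries. In Δ/+ cells Tlr2 had 932, 946 and 811 CPM with LPS against 486, 520.5, 466 and 461 CPM without it. Its rise was the smallest of the 3, at 1.03 ± 0.23 (adjusted p = 0.00212) in Δ/DN and 0.95 ± 0.25 (adjusted p = 0.00613) in Δ/+. In Δ/DN it rested on unequal cultures: the LPS over US ratio was 1.26 in culture 3, whose US library was the highest, and up to 3.02 in the others.

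Tlr4, the LPS receptor itself, fell with LPS. It had 123, 128, 114 and 124 CPM in Δ/DN LPS libraries against 194, 201, 255 and 216 CPM in Δ/DN US libraries. In Δ/+ cells it had 106, 104 and 133 CPM with LPS against 283, 343, 291 and 415 CPM without it. All LPS libraries lay below all US libraries of their genotype, and the log2 differences were -0.82 ± 0.12 (adjusted p = 4.57e-05) in Δ/DN and -1.49 ± 0.13 (adjusted p = 5.33e-07) in Δ/+. Tlr5, the flagellin receptor, was barely detected, with 0.0334, 0.133, 0.168 and 0.118 CPM in Δ/DN LPS against 0.801, 2.00, 0.338 and 0.461 CPM in Δ/DN US libraries. It had 0.109, 0.113 and 0.0262 CPM in Δ/+ LPS against 0.720, 0.286, 0.231 and 0.396 CPM in Δ/+ US libraries. The log2 differences were -2.78 ± 0.64 (adjusted p = 0.00216) in Δ/DN and -2.42 ± 0.74 (adjusted p = 0.0141) in Δ/+, and without Δ/+ LPS replicate 3 the Δ/+ value was -1.98 (adjusted p = 0.0638). They rest on 2 to 12 reads per library in Δ/DN LPS and 2 to 8 in Δ/+ LPS libraries.

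Of the endosomal genes, Tlr3, the receptor for duplex RNA, rose most. It had 153, 108, 144 and 63.7 CPM in Δ/DN LPS libraries against 7.90, 7.33, 30.6 and 7.74 CPM in Δ/DN US libraries. In Δ/+ cells it had 162, 168 and 181 CPM with LPS against 8.86, 6.12, 11.9 and 2.73 CPM without it. The groups did not overlap, and the log2 difference was 3.14 ± 0.58 (adjusted p = 0.000790) in Δ/DN and 4.53 ± 0.63 (adjusted p = 8.16e-05) in Δ/+, that is 8.80-fold and 23.1-fold. Without Δ/DN US replicate 3, the high US library, the Δ/DN value was 4.01 (adjusted p = 7.75e-06). An antisense gene, Gm45542, overlaps Tlr3 exons in the reference annotation of GRCm38, and the use of strand in counting was not given, so reads of both cannot be told apart. Tlr7, a receptor for RNA encoded on the X chromosome, had 202, 182, 206 and 152 CPM in Δ/DN LPS against 30.8, 39.3, 60.6 and 43.5 CPM in Δ/DN US libraries. It had 247, 249 and 259 CPM in Δ/+ LPS against 42.0, 39.9, 41.0 and 45.9 CPM in Δ/+ US libraries. The Δ/+ libraries lay close together within each treatment, and Tlr7 rose by 2.11 ± 0.15 (adjusted p = 7.35e-08) on the log2 scale in Δ/DN and 2.63 ± 0.16 (adjusted p = 1.99e-08) in Δ/+.

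Tlr9, the CpG DNA receptor, showed a smaller rise. It had 54.0, 90.5, 43.5 and 36.6 CPM in Δ/DN LPS against 28.9, 40.6, 29.5 and 24.8 CPM in Δ/DN US libraries. In Δ/+ cells it had 27.8, 20.5 and 29.1 CPM with LPS against 18.4, 15.1, 20.7 and 11.3 CPM without it. The groups overlapped in each genotype, but every paired culture was higher with LPS, by 1.47- to 2.23-fold in 4 Δ/DN cultures and 1.36- to 1.51-fold in 3 Δ/+ cultures. The log2 difference was 0.81 ± 0.18 (adjusted p = 0.00208) in Δ/DN. In Δ/+ it was 0.53 ± 0.20 (adjusted p = 0.0418), a call lost without any of 8 libraries (Δ/+ LPS replicates 1 and 3, Δ/+ US replicates 1, 2 and 4, Δ/DN LPS replicate 3, and Δ/DN US replicates 2 and 4), with adjusted p-values of 0.0102 to 0.151 over the 15 leave-outs. Of the 11 other alternative fits, 5 kept this Δ/+ call. It was lost with no filter on low counts, no library set term, library set 2 only or library totals. Leaving out Δ/DN culture 3, or Δ/DN cultures 3 and 4, also lost it. With culture as a block the Δ/+ difference was 0.52 ± 0.12 (adjusted p = 0.00233). Tlr8, a relative of Tlr7 also on the X chromosome, had 65.9, 74.9, 67.1 and 41.8 CPM in Δ/DN LPS and 55.6, 70.6, 94.0 and 55.2 CPM in Δ/DN US libraries. It had 67.7, 68.5 and 87.7 CPM in Δ/+ LPS and 71.4, 82.9, 94.0 and 95.8 CPM in Δ/+ US libraries. The groups overlapped, and no call was made (-0.14 ± 0.20 in Δ/DN, -0.20 ± 0.22 in Δ/+). Tlr13, the receptor for bacterial ribosomal RNA, lay between 75.9 and 129.6 CPM over the Δ/DN libraries and between 66.0 and 90.9 CPM over the Δ/+ libraries, with log2 differences of 0.11 ± 0.14 and 0.064 ± 0.16 and no call.

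The LPS libraries had lower normalisation factors than the US libraries, so the scaling sets where 0 lies in this comparison. With plain library totals the median log2 difference of all genes was -0.67 in Δ/DN and -0.73 in Δ/+. Tlr13 then fell by 0.47 (adjusted p = 0.0119) in Δ/DN and by 0.59 (adjusted p = 0.00589) in Δ/+, and Tlr8 was -0.72 and -0.86, also called. Tlr9 was 0.23 and -0.13 and lost its call in both genotypes, and Tlr2 lost it in Δ/+. Relative to the median of all genes, Tlr9 stood at 0.90 and 0.60, and Tlr8 and Tlr13 between -0.14 and 0.20. Tlr1, Tlr6, Tlr3 and Tlr7 stayed higher, and Tlr4 and Tlr5 lower, in both genotypes under either scaling.

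**Figure D3:**
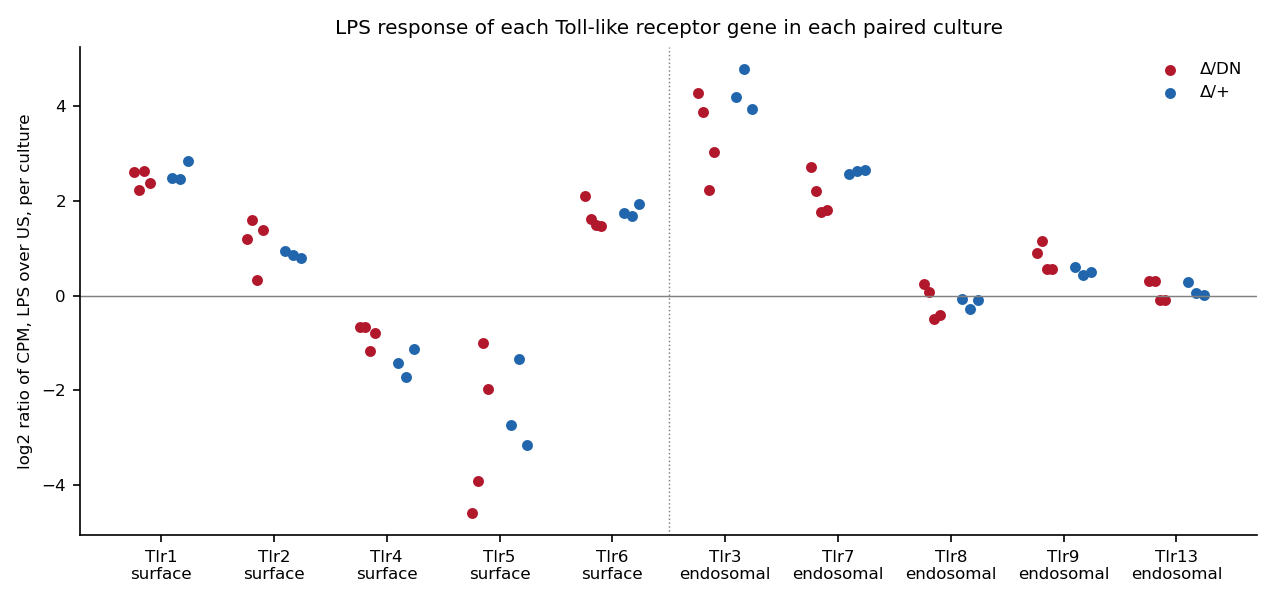
Log2 ratio of CPM with LPS over CPM without it for each gene in each culture that gave both libraries, 4 Δ/DN (red) and 3 Δ/+ (blue). All 7 cultures lie above 0 for Tlr1, Tlr2, Tlr6, Tlr3, Tlr7 and Tlr9 and below 0 for Tlr4 and Tlr5, while Tlr8 and Tlr13 straddle 0 in Δ/DN.

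Markers of other cells were read beside these responses. TLR7 and TLR9 are prominent in plasmacytoid dendritic cells and B cells. The 10 plasmacytoid markers summed to 368 to 555 CPM in Δ/DN LPS against 119.9 to 230.0 CPM in Δ/DN US, and to 574 to 639 CPM in Δ/+ LPS against 96.7 to 162 CPM in Δ/+ US libraries. Of the 10, 3 were called higher with LPS (Tcf4, Ccr9 and Bst2) and 1 lower (Spib) in each genotype, and with LPS the sum was mostly Tcf4 and Bst2. Tcf4 averaged 263 CPM in Δ/DN LPS against 40.6 CPM in Δ/DN US, and 320.3 CPM in Δ/+ LPS against 39.5 CPM in Δ/+ US libraries. Bst2 averaged 168 CPM in Δ/DN LPS against 60.9 CPM in Δ/DN US, and 219.6 CPM in Δ/+ LPS against 39.7 CPM in Δ/+ US libraries. The defining marker Siglech was at most 0.349 CPM and Ly6d at most 0.449 CPM in any library. None of the plasmacytoid markers was at 0 in all libraries of a group. The 8 B cell markers summed to 0.598 to 3.95 CPM over all libraries. The 8 markers of type 1 conventional dendritic cells, which carry much Tlr3, summed to 383 to 513 CPM in Δ/DN LPS against 626 to 755 CPM in Δ/DN US, and to 467 to 533 CPM in Δ/+ LPS against 559.5 to 771 CPM in Δ/+ US libraries. That sum was mostly Naaa and Wdfy4, both called lower with LPS in Δ/DN (-0.73 ± 0.20, adjusted p = 0.00789 and -0.38 ± 0.14, adjusted p = 0.0380) and not called in Δ/+ (-0.30 ± 0.22, adjusted p = 0.299 and -0.33 ± 0.16, adjusted p = 0.101). Xcr1, a defining marker of these cells, was called higher with LPS in Δ/DN (1.67 ± 0.49, adjusted p = 0.0103) and in Δ/+ (4.15 ± 0.61, adjusted p = 4.87e-05), at means of 0.497 CPM in Δ/DN LPS against 0.167 CPM in Δ/DN US, and 0.652 CPM in Δ/+ LPS against 0.0314 CPM in Δ/+ US libraries. Xcr1 was at least 0.366 CPM in every LPS library but at most 0.0463 CPM, or 5 reads, in Δ/+ US libraries. With the filter's cutoff at 0.127 CPM, it could enter the test through the LPS side alone. In all, 1 of the 8 type 1 markers was higher and 4 lower in Δ/DN, and 1 higher and 1 lower in Δ/+. The counts of these marker lists stand against 23.1% of all genes higher and 25.1% lower in Δ/DN. In Δ/+ they stand against 22.4% higher and 25.3% lower. The part of these cells in the responses was not tested.

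Without LPS, Δ/DN cells had less RNA for Tlr2 and Tlr4 and more for Tlr1, Tlr6 and Tlr9 than Δ/+ cells. These 5 of 10 genes were called in the Δ/DN minus Δ/+ comparison, against 10.5% of all genes tested (5.01% higher, 5.45% lower), and the groups did not overlap for 4 of 10, against 12.5% of all genes. The surface genes supplied 4 of the calls, 2 in each direction, and the endosomal genes 1. The median absolute log2 difference was 0.87 over the 5 surface and 0.32 over the 5 endosomal genes, and 0.28 over all genes. Tlr1 was 2.88-fold higher in Δ/DN US libraries in the fit, a log2 difference of 1.52 ± 0.32 (adjusted p = 0.0151), and its 4 Δ/DN US values given above all lay above the 4 Δ/+ US values. Tlr6 differed by 0.64 ± 0.15 (adjusted p = 0.0172) and Tlr9 by 1.10 ± 0.19 (adjusted p = 0.00706), again with no overlap between the groups. Tlr4 was 1.58-fold lower in the fit, at -0.66 ± 0.12 (adjusted p = 0.00794), with every Δ/DN US library below every Δ/+ US library. Tlr2 differed by -0.87 ± 0.24 (adjusted p = 0.0387), but Δ/DN US replicate 3, at 500.0 CPM, lay inside the Δ/+ US range of 461 to 520.5 CPM. Without that library the Tlr2 difference was -1.21 (adjusted p = 0.000220), and over the 26 alternative fits the call of Tlr2 was lost in 14.

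The 5 genes not called were Tlr5 (1.17 ± 0.56), Tlr3 (0.85 ± 0.62), Tlr7 (-0.022 ± 0.15), Tlr8 (-0.32 ± 0.20) and Tlr13 (0.30 ± 0.15). Tlr3 turned on 1 library: without Δ/DN US replicate 3 its log2 difference was 0.18. The calls also turned on 1 Δ/+ library. Without Δ/+ US replicate 4, which alone represents Δ/+ in set 3, 0 of the Toll-like receptor genes were called and 174 of all genes, 0.835%, while the log2 differences of Tlr1, Tlr6, Tlr9, Tlr4 and Tlr2 were 1.21, 0.51, 1.06, -0.56 and -1.03. Without Δ/DN US replicate 2, Tlr4 and Tlr9 were called, and without Δ/+ US replicate 2, Tlr1, Tlr4 and Tlr9. Within library set 2 alone the same 5 differences were 1.23, 0.41, 0.93, -0.65 and -1.21, and Tlr2 and Tlr4 were called. Set 3 holds 1 Δ/+ US library and gives no value of its own.

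With LPS, Tlr9 alone was called between the genotypes in the main edgeR fit. It averaged 56.2 ± 24.0 CPM in Δ/DN LPS (n = 4) and 25.8 ± 4.62 CPM in Δ/+ LPS libraries (n = 3), and was higher in Δ/DN by a fitted log2 difference of 1.38 ± 0.21 (adjusted p = 0.00547), that is 2.60-fold with library set in the model. The lowest Δ/DN LPS library, at 36.6 CPM, lay above the highest Δ/+ LPS library, at 29.1 CPM. The call held in all 26 alternative fits run, with log2 differences of 1.09 to 1.53. A share of 1 in 10 is near the 8.6% of all genes called in this comparison (5.37% higher, 3.23% lower). None of the 5 surface genes passed in edgeR's test. At an unadjusted p under 0.05 there were 3 of them, and DESeq2 called 2, Tlr1 and Tlr2. Of the endosomal genes, DESeq2 called Tlr7 beside Tlr9. Over 11 alternative fits Tlr7 was called in 7, Tlr2 in 5, Tlr1 in 4 and Tlr6 in 1. Over 15 leave-outs Tlr7 was called in 2, Tlr2 in 2, Tlr1 in 3 and Tlr6 in 1. Tlr1 differed by 1.16 ± 0.35 (adjusted p = 0.0578), Tlr2 by -0.78 ± 0.27 (adjusted p = 0.0806), Tlr6 by 0.44 ± 0.16 (adjusted p = 0.102) and the endosomal gene Tlr7 by -0.54 ± 0.17 (adjusted p = 0.0573). For these genes and for Tlr3, Tlr9 and Tlr13 the groups did not overlap, 7 of 10 against 24.6% of all genes. Tlr4 differed by 0.0068 ± 0.13 (adjusted p = 0.983), with overlapping groups, and Tlr8, Tlr3, Tlr13 and Tlr5 by -0.26 ± 0.23, -0.54 ± 0.61, 0.35 ± 0.17 and 0.81 ± 0.83. The comparisons with and without LPS share no library, but the LPS and US libraries of a culture share their cells.

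**Figure D4:**
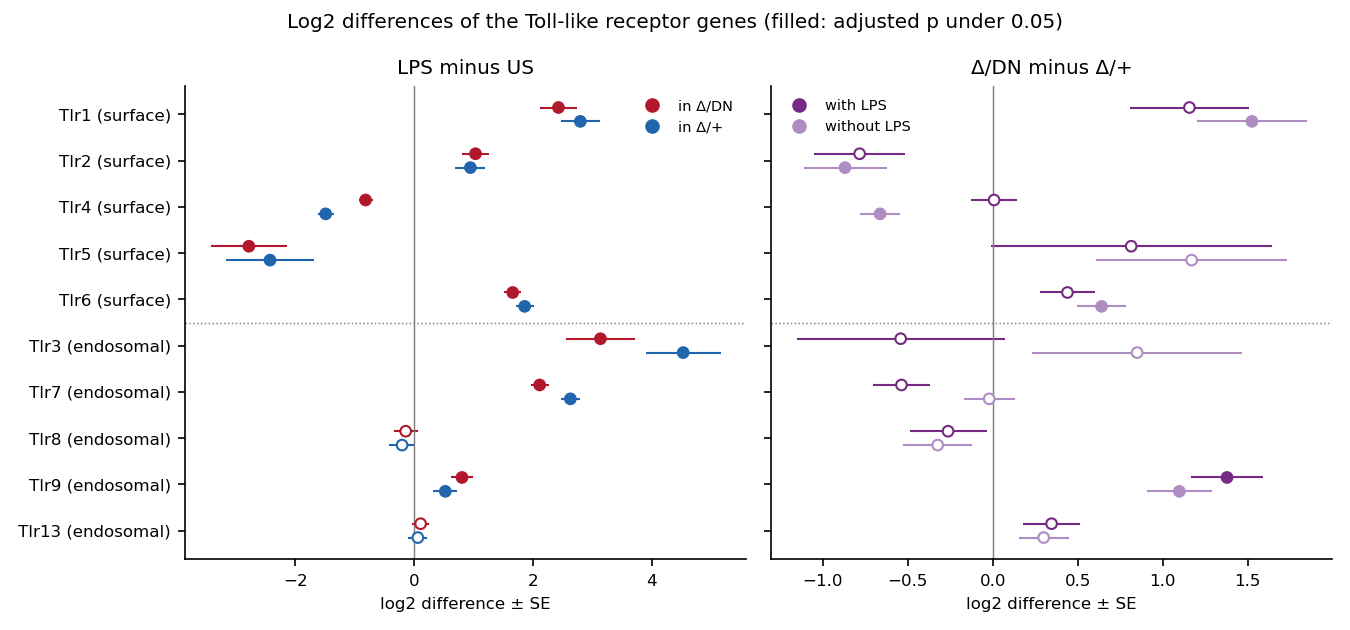
Log2 differences ± SE of the 10 genes for LPS minus US in each genotype (left) and Δ/DN minus Δ/+ with and without LPS (right), with filled points at an adjusted p under 0.05 and a dotted line between surface and endosomal genes. LPS differences reach 4.53 for Tlr3, while genotype differences lie between -0.87 and 1.52.

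Markers of other cells were also read between the genotypes. Their counts stand against 10.5% of all genes called without LPS (5.01% higher, 5.45% lower). With LPS they stand against 8.6% (5.37% higher, 3.23% lower). A list with 1 call among 10 markers is thus near the share of all genes. The 10 neutrophil markers summed to 177 to 1255 CPM in Δ/DN LPS against 112 to 164 CPM in Δ/+ LPS, and to 178 to 1115 CPM in Δ/DN US against 131 to 213 CPM in Δ/+ US libraries, with no marker at 0 in all libraries of a group and 1 marker called higher in each state. The highest of these sums, 1255 and 1115 CPM, were in Δ/DN culture 4. The 5 progenitor markers summed to 6.57 to 17.0 CPM in Δ/DN LPS against 5.97 to 7.13 CPM in Δ/+ LPS, and to 11.2 to 34.8 CPM in Δ/DN US against 9.92 to 18.3 CPM in Δ/+ US libraries. They were highest in Δ/DN culture 2, at 17.0 and 34.8 CPM, and 2 of the 5 were called higher in Δ/DN in each state and 1 lower with LPS. The 6 monocyte markers summed to 1935 to 2804 CPM in Δ/DN US, all below the 3096 to 4516 CPM of Δ/+ US libraries. With LPS these sums were 2848 to 6303 CPM in Δ/DN against 5268 to 6712 CPM in Δ/+ libraries. Of the monocyte markers, 1 was called, lower in Δ/DN without LPS. Of the 10 plasmacytoid markers, Pacsin1 was called higher in Δ/DN, as Tlr9 was, with LPS (2.22 ± 0.54, adjusted p = 0.0289) and without it (1.84 ± 0.47, adjusted p = 0.0273), and no other was called. Of the 8 type 1 dendritic cell markers, 3 were higher in Δ/DN without LPS, Xcr1 (2.64), Itgae (1.77) and Wdfy4 (0.54), and with LPS 1, Tlr11, was lower. The Xcr1 call rested on at most 5 reads per Δ/+ US library and 32 per Δ/DN US library. Xcr1 could pass the filter through the LPS libraries alone. Of the 10 macrophage markers, C1qa, C1qb and C1qc were higher and Marco and Cd68 lower in Δ/DN without LPS. With LPS, C1qa was higher and Marco and Cd68 were lower. Of the 7 mast cell and basophil markers, Cd200r3 was called higher in both states. The part of these cells in the differences was not tested.

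None of the 10 genes passed the test of the difference between the LPS effects of the genotypes, in which 0.00479% of all genes, 1 gene, was called by edgeR. Unadjusted p-values were under 0.05 for 2 of them, Tlr4 and Tlr7, and DESeq2 called 0. For Tlr4 the LPS effects of -0.82 in Δ/DN and -1.49 in Δ/+ differed by 0.67 ± 0.17 in edgeR's quasi-likelihood test (adjusted p = 0.256). Per culture, the LPS over US ratio of Tlr4 was 0.446 to 0.635 in 4 Δ/DN cultures and 0.304 to 0.457 in 3 Δ/+ cultures, which overlap. For Tlr7 the difference was -0.52 ± 0.21 (adjusted p = 0.485), with ratios of 3.40 to 6.57 in Δ/DN and 5.89 to 6.32 in Δ/+ cultures. For Tlr3 it was -1.39 ± 0.79 (adjusted p = 0.657), and -0.45 without Δ/DN US replicate 3. The other 7 genes differed by -0.37 to 0.28.

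The balance of RNAs within the lipopeptide receptors differed between the groups. On the CPM per kb scale there were 15.04 to 23.6 Tlr2 RNAs per Tlr1 RNA in Δ/DN LPS and 23.2 to 116 in Δ/DN US libraries. In Δ/+ the ratio was 35.0 to 89.9 with LPS and 143 to 439.8 without it. It was lower with LPS without overlap in Δ/+, and lower in Δ/DN than in Δ/+ without overlap in both states. The ratio of Tlr2 to Tlr6 was 14.996 to 19.2 in Δ/DN LPS, 15.7 to 42.9 in Δ/DN US, 28.6 to 47.1 in Δ/+ LPS and 63.2 to 82.5 in Δ/+ US libraries, again lower in Δ/DN in both states. Within the endosomal receptors, the ratio of Tlr7 to Tlr9 was 1.71 to 4.03 in Δ/DN LPS and 0.825 to 1.75 in Δ/DN US libraries. It was 7.57 to 10.3 in Δ/+ LPS and 1.68 to 3.48 in Δ/+ US libraries. The highest Δ/DN LPS value lay below the lowest Δ/+ LPS value, while the US ranges met between 1.68 and 1.75. These ratios are descriptions, with no test.

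**Figure D5:**
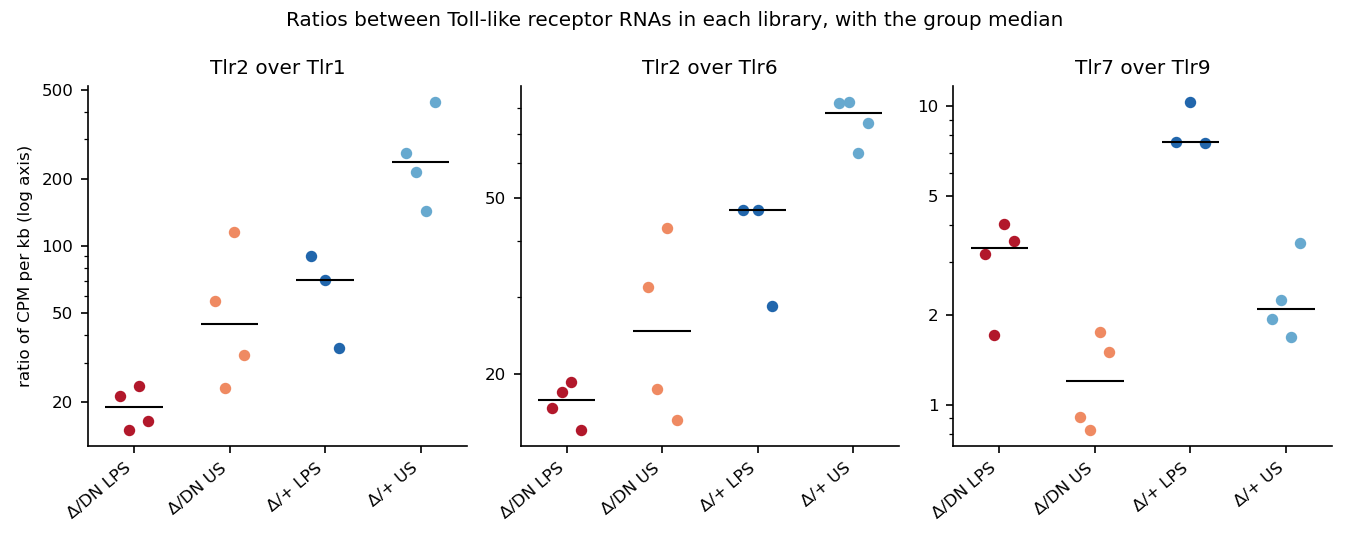
Ratios of CPM per kb between Toll-like receptor RNAs in each library (points, log axis) with the group median (line): Tlr2 over Tlr1, Tlr2 over Tlr6 and Tlr7 over Tlr9. The medians of Tlr2 over Tlr1 are 18.9 in Δ/DN LPS, 44.6 in Δ/DN US, 70.6 in Δ/+ LPS and 238 in Δ/+ US libraries.

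Genes for proteins that help the receptors were read from lists chosen by role. With LPS, the counts stand against 23.1% of all genes higher and 25.1% lower in Δ/DN, and 22.4% higher and 25.3% lower in Δ/+. Counts between genotypes stand against 5.01% higher and 5.45% lower without LPS, and 5.37% higher and 3.23% lower with it. Most calls over all genes without LPS were lost without Δ/+ US replicate 4, as given above. These lists were not read in that fit. Of 4 co-receptors for LPS and lipopeptides, Cd14 and Ly96, which encodes MD-2, rose with LPS in both genotypes while Tlr4 fell. Cd14 differed by 3.12 ± 0.27, adjusted p = 8.04e-07, in Δ/DN and by 2.12 ± 0.28, adjusted p = 2.66e-05, in Δ/+. Ly96 differed by 0.87 ± 0.17, adjusted p = 0.000788, in Δ/DN and by 1.18 ± 0.19, adjusted p = 0.000116, in Δ/+. Without LPS, Cd14 was lower in Δ/DN, beside the lower Tlr4, at 84.0 ± 51.7 CPM in Δ/DN US and 228 ± 61.5 CPM in Δ/+ US libraries (-1.61 ± 0.27, adjusted p = 0.00642).

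Of 13 genes for delivery and processing of the receptors, 6 rose and 3 fell with LPS in Δ/DN, and 4 rose and 3 fell in Δ/+. In Δ/+ that is near the 47.7% of all genes called. Rab7b, whose product directs TLR4 and TLR9 to lysosomes, fell by 2.53 on the log2 scale in Δ/DN and by 3.28 in Δ/+. Cnpy3, a folding partner of several receptors, fell by 0.96 in Δ/DN and by 1.27 in Δ/+. Lrrc59 rose in both, by 0.98 and 0.87. Ap3b1, a subunit of a sorting adaptor of endosomes, rose by 0.90 in Δ/DN and by 0.70 in Δ/+. Cnpy4 was lower with LPS in both, at -1.16 in Δ/DN and -1.06 in Δ/+. Between genotypes, Unc93b1, the carrier of the endosomal receptors, was higher in Δ/DN in both states. It had 313, 319, 232 and 237 CPM in Δ/DN LPS against 209, 201 and 237 CPM in Δ/+ LPS libraries (0.46 ± 0.12, adjusted p = 0.0328). Without LPS it had 181, 200.1, 205 and 165 CPM in Δ/DN US against 147, 132, 155 and 123 CPM in Δ/+ US libraries (0.50 ± 0.11, adjusted p = 0.0135). The US groups did not overlap, while Δ/DN LPS replicate 3 lay below the highest Δ/+ LPS library. With LPS, Cnpy3 was also higher in Δ/DN (0.64 ± 0.15, adjusted p = 0.0231).

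Of 7 adaptors, Myd88, Pik3ap1 and Ticam1 rose and Slc15a4 fell with LPS in both genotypes. Myd88 rose by 1.44 on the log2 scale in Δ/DN and by 1.80 in Δ/+. Tirap, which brings MYD88 to TLR2 and TLR4 at the membrane, was lower in Δ/DN with LPS (-0.45 ± 0.12, adjusted p = 0.0367) and without it (-0.47 ± 0.11, adjusted p = 0.0170). With LPS, Ticam2, which links TLR4 to TICAM1 in endosomes, was higher in Δ/DN (0.88 ± 0.14, adjusted p = 0.00650), as was Slc15a4, a transporter needed for TLR7 and TLR9 signalling (0.39 ± 0.10, adjusted p = 0.0321). Of 15 kinases and ubiquitin ligases of the pathway, 11 rose and 3 fell with LPS in Δ/DN, and 9 rose and 3 fell in Δ/+. The genes with the smallest p all rose: Peli1 (3.38 in Δ/DN and 3.69 in Δ/+), Ikbke (1.87 and 1.53), Tbk1 (1.48 and 1.55) and Tab2 (1.39 and 1.73). Without LPS, 3 of the 15 were lower in Δ/DN: Ikbkg, which encodes the regulatory subunit of the IKK complex (-0.82 ± 0.11, adjusted p = 0.00254), Map3k7 (-0.24 ± 0.066, adjusted p = 0.0348) and Tab3 (-0.30 ± 0.088, adjusted p = 0.0423). With LPS, Tab2 was lower (-0.45 ± 0.12, adjusted p = 0.0387). Of 11 proximal negative regulators, 7 rose and 3 fell with LPS in Δ/DN, and 6 rose and 4 fell in Δ/+. Irak3, Tnfaip3 and Socs1, brakes on the pathway, were among those that rose, and Inpp5d, which encodes a phosphatase, fell in both genotypes. Without LPS, 3 of the 11 were lower in Δ/DN: Tollip (-0.47 ± 0.11, adjusted p = 0.0162), Otud4 (-0.36 ± 0.087, adjusted p = 0.0206) and Rnf216 (-0.27 ± 0.073, adjusted p = 0.0311). With LPS, Tnfaip3 was lower (-0.88 ± 0.25, adjusted p = 0.0426) and Inpp5d higher (1.03 ± 0.23, adjusted p = 0.0189) in Δ/DN. Of 10 transcription factors downstream, 8 rose and 1 fell with LPS in each genotype, and those with the smallest p were the NF-kB subunit genes Rel, Nfkb1, Nfkb2 and Rela, which rose.

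The genes whose log2 CPM followed each member most closely over the 15 libraries were found by Pearson's r, which here is a description across libraries of 4 groups that share cultures and treatments. Tlr3 was closest to Tap1 (r = 0.998), a peptide transporter of MHC class I presentation, and to Ms4a4c (r = 0.998). Tlr7 was closest to Vps54 and Poldip3 (r = 0.994 and 0.994), and Tlr1 to A630001G21Rik and Cst7 (r = 0.988 and 0.976). For Tlr6 the first gene was Hk1 (r = 0.984), for Tlr4 Adam10 and Hspd1 (r = 0.983 and 0.983), for Tlr2 Ak4 (r = 0.972), and for Tlr9 Snd1 (r = 0.967). Tlr8 and Tlr13, which LPS moved past the threshold only with library totals, had no such close companion, with r of at most 0.809 (Pgap3) and 0.894 (Ddost). Among the members, r was 0.962 between Tlr1 and Tlr6, both on chromosome 5, 0.959 between Tlr3 and Tlr7, and -0.909 between Tlr1 and Tlr4.

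Tlr7, Tlr8 and Tlr13 lie on the X chromosome, and Δ/DN culture 4 was the only culture with abundant Xist, while Ddx3y, a gene of the Y chromosome, had 0 reads there and 3.69 and 1.94 CPM in the LPS and US libraries of Δ/DN culture 3. In the other libraries Ddx3y was at least 47.2 CPM. Eif2s3y, another gene of the Y chromosome, averaged 43.5 CPM in Δ/DN LPS libraries (0 to 59.3 CPM) and 31.8 CPM in Δ/DN US libraries (0 to 43.1 CPM). Both means are too high for cultures 3 and 4 to lie near 0 together. Low Ddx3y alone thus does not place culture 3 with culture 4. With LPS, Δ/DN culture 4 had the lowest Tlr8 of all 15 libraries, 41.8 CPM, and the lowest Tlr7 of the LPS libraries, 152 CPM. Without that culture the Δ/DN minus Δ/+ difference with LPS was -0.47 for Tlr7 (adjusted p = 0.0536), -0.18 for Tlr8 and 0.38 for Tlr13, in the same directions as with it.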

How the data were processed

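The authors deposited 1 table per library with read counts of 50554 genes and a gene length. Per the submitters' processing notes, the build was mm39 (GRCm39) and the tools included featureCounts, HISAT2 2.2.1, Trimmomatic 0.33, FastQC, bedtools and edgeR. The deposited counts were not normalized, and all 15 libraries entered 1 model with group and library set in edgeR 4.0.16 (R 4.3.3): TMM factors, a minimum count of 10 in filterByExpr, which kept 20865 genes, and the quasi-likelihood test with Benjamini-Hochberg adjustment, with an adjusted p under 0.05 called. LPS and US libraries of a culture entered this model as independent. Groups follow the sample labels. The script was tested on simulated data with known fold changes. CPM uses TMM factors, which were lower in LPS libraries. TPM with the deposited length had been planned for levels between genes, but that length exceeds the whole RefSeq gene span for 6 of the 10 genes, so CPM was divided by merged exons of GENCODE vM21 (GRCm38). A share within a library is the same for TPM and CPM per kb.

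The members and lists were chosen with earlier results of these data known. All 10 members are named, and of each pathway list up to 4 called genes with the smallest p per comparison. Genes closest to a member were found by Pearson's r of log2 CPM (prior count 2). Up to 2 of them are named per member, and none for Tlr5. Library names pair LPS and US libraries of 7 cultures. Deviations from group means correlated at 0.0643 to 0.428 (median 0.221) within a culture and at a median of -0.0687 over 21 other pairs. Alternatives were DESeq2 1.42.0, its size factors, no filter, no set term, library set 2 only, leaving out cultures or each library, limma 3.58.1 voom with a correlation of 0.279 within a culture, blocks by culture or replicate number, library totals, and other lengths for the shares. In a leave-out no group had fewer than 2 libraries. Promoter windows and motif shares came from RefSeq (GRCm38.p6).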

Additional observations from a re-analysis of the deposited data

Results flagged for a closer look

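Tlr3 in Δ/DN US replicate 3 stood far from the other libraries of its group, at 30.6 CPM against 7.33 to 7.90 CPM in the other 3. In the same library Tap1 was 255 CPM and Ms4a4c 23.6 CPM, against 91.5 to 106 CPM and 2.00 to 2.78 CPM in the others. Tlr13 in Δ/DN US replicate 1 stood below its group, at 75.9 CPM against 103 to 107 CPM in the other 3. Of 33 groups of values examined for a sample far from the others, 2 had one, and chance gives about 5%.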

How the results depend on the processing

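Of the alternative values of single genes, 1185 kept their direction and their side of the threshold, 44 changed direction, 27 gained a call and 44 lost one. The cause of the changes below was not tested. The count of Toll-like receptor genes called without LPS between Δ/DN and Δ/+ was 5, and became 4 with no filter on low counts or without Δ/DN culture 4, 3 with no library set term, 2 in library set 2 only, 2 without Δ/DN cultures 3 and 4, and 0 to 5 when each library was left out. With LPS it was 1, and became 2 with no filter on low counts, 4 with DESeq2, 3 in library set 2 only, 3 without Δ/DN culture 3, 2 with limma voom, 3 with library totals, 3 without Δ/DN cultures 3 and 4, and 1 to 3 when each library was left out. The libraries whose loss raised the count to 3 were Δ/+ LPS replicate 3 and Δ/DN US replicates 3 and 4, and those that raised it to 2 were Δ/DN LPS replicate 1 and Δ/DN US replicate 1. Replicate numbers are shared by Δ/DN and Δ/+ without a stated pairing: a replicate block by number gave 5 calls with LPS and 5 without it. Library names pair the LPS and US libraries of a culture, and a replicate block by culture changed no LPS call of the 10 genes, with 8 in Δ/DN, 8 in Δ/+ and 0 for the difference. Leaving out each library gave 8 calls in Δ/DN and 6 to 8 in Δ/+ for LPS. In Δ/+, Tlr9 kept its LPS call in 5 of the 11 other alternative fits. The alternatives that drop Δ/DN cultures 3 and 4 together, use library totals or use the deposited length were chosen after seeing the data.

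Directions that changed for the Toll-like receptor genes were as follows. Without LPS between genotypes, Tlr3 was -0.26 in set 2 only and -0.25 without Δ/DN cultures 3 and 4, and Tlr7 was 0.047 with no set term, 0.038 with library totals and -0.18 to 0.13 over the leave-outs. With LPS, Tlr4 was -0.011 in limma voom and -0.075 to 0.13 over the leave-outs. For LPS in Δ/DN, Tlr8 was 0.19 in set 2 only, 0.015 without culture 3, 0.17 without cultures 3 and 4 and -0.25 to 0.077 over the leave-outs, and Tlr13 was -0.47 with library totals and -0.036 to 0.18 over the leave-outs. For LPS in Δ/+, library totals gave -0.13 for Tlr9 and -0.59 for Tlr13, which ran -0.028 to 0.17 over the leave-outs. For the difference between LPS effects, Tlr2 was -0.0049 without Δ/DN culture 4, Tlr6 0.082 in set 2 only and 0.067 without cultures 3 and 4, and Tlr13 -0.0079 with the replicate block by culture. The leave-outs of that difference ran -0.64 to 0.028 for Tlr1, -0.094 to 0.55 for Tlr2, -0.80 to 0.15 for Tlr5, -0.068 to 0.31 for Tlr8 and -0.13 to 0.14 for Tlr13.

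The surface share of the 10 Toll-like receptor genes in CPM, with no division by length, was 59.5% in Δ/DN LPS and 63.6% in Δ/+ LPS libraries. With the deposited gene length it was 58.2% in Δ/DN LPS, 54.0% in Δ/DN US and 72.2% in Δ/+ US libraries, and under 50% in 1 library, Δ/DN US replicate 2. Depth limits Tlr5 most, which had 12 reads or fewer in each LPS library.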

Other observations

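Relatives of the 10 Toll-like receptor genes also moved with LPS, among them Cd180, which encodes a TLR-like surface protein that restrains TLR4. Tlr11, a profilin receptor of mice, had 2.10, 0.666, 1.75 and 1.74 CPM in Δ/DN LPS libraries against 3.80, 3.77 and 4.63 CPM in Δ/+ LPS libraries. It was lower in Δ/DN with LPS (-1.59 ± 0.44, adjusted p = 0.0421 by edgeR's quasi-likelihood test), with no overlap between the groups, and without LPS it differed by -0.29 ± 0.39, adjusted p = 0.693. LPS lowered Tlr11 in Δ/DN (-1.34 ± 0.38, adjusted p = 0.00952), and in Δ/+ the difference was -0.043 ± 0.40, adjusted p = 0.943. The LPS effects on Tlr11 differed by -1.30 ± 0.55, adjusted p = 0.495, which did not pass. Tlr12, the partner of TLR11, averaged 0.291 ± 0.258 CPM in Δ/DN LPS against 0.783 ± 0.171 CPM in Δ/DN US, and 0.238 ± 0.166 CPM in Δ/+ LPS against 0.607 ± 0.248 CPM in Δ/+ US libraries (SD, n = 3 or 4). It fell with LPS in Δ/DN (-1.55 ± 0.50, adjusted p = 0.0175) and Δ/+ (-1.50 ± 0.56, adjusted p = 0.0390). These calls of Tlr12 rest on 6 to 40 reads per Δ/DN LPS library and 6 to 30 per Δ/+ LPS library. Cd180 averaged 139 ± 13.5 CPM in Δ/DN LPS against 59.8 ± 14.8 CPM in Δ/DN US, and 107 ± 34.0 CPM in Δ/+ LPS against 35.2 ± 11.2 CPM in Δ/+ US libraries. It rose with LPS in Δ/DN (1.23 ± 0.24, adjusted p = 0.000695) and Δ/+ (1.65 ± 0.25, adjusted p = 0.000120).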
